A study of Mus musculus with 11 samples.

Results

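Type I interferons are secreted antiviral proteins, and most cell types of the brain can respond to them. They bind a receptor made of Ifnar1 and Ifnar2, the kinases Jak1 and Tyk2 then pass the signal to a complex containing Stat2 and Irf9, which binds a repeated DNA element in the promoters of interferon-stimulated genes. A set of such genes is known to be switched on in a subset of microglia in mice with amyloid plaques. From such genes 9, Irf7, Isg15, Usp18, Ifit3, Oasl2, Ifitm3, Bst2, Ifi27 and Rtp4, were taken here as the type I interferon response genes. They were chosen by name and matched by symbol to 9 of the 53700 gene identifiers counted.

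The genes were compared between cortices that had Abi3 and cortices that lacked it. Abi3 encodes a subunit of the WAVE complex, which directs actin branching, and in the brain it is found mainly in microglia. All 11 animals were female 5xFAD mice aged 8 months on a C57BL/6 strain by their labels, 6 of them Abi3 WT and 5 Abi3 KO. All carried the 5xFAD transgenes, which are human and carry familial Alzheimer's disease mutations and are driven in neurons by the Thy1 promoter. The KO allele is a constitutive null made in C57BL/6N mice, so Abi3 is absent from all cells and at all ages, and the 5xFAD line has an SJL component. Per the study's methods, mice of both genotypes were also heterozygous for a Trem2 variant carried by SJL. No group without amyloid was analysed here. RNA of whole cortex was sequenced with QuantSeq 3′ libraries, whose reads lie near the 3′ end of a transcript. A count thus stands for transcript ends and was not divided by transcript length. In whole tissue, fewer cells of a type and less RNA per cell cannot be told apart.

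None of the 9 genes passed the threshold of a Benjamini-Hochberg adjusted p of 0.05 in the DESeq2 fit of all genes. Of the 17626 genes tested, 95 passed, which is 0.539%, and with independent filtering off 57 passed, or 0.323%. Ifi27 came nearest, with a mean of 1.46 times the Abi3 WT level in Abi3 KO (adjusted p = 0.0585 by DESeq2). Fitted differences of the 9 genes ran from a log2 fold change of -0.55 for Usp18 to 1.00 for Rtp4, 5 above and 4 below 0, with a median of 0.12 beside -0.0033 over all genes tested. At an unadjusted p under 0.05, DESeq2 put 2 of the 9 higher in Abi3 KO, Ifi27 and Rtp4, where 4.14% of all genes were higher at that level, and 0 lower, where 4.44% of all genes were lower. By edgeR 2 of the 9 and by limma 1 of the 9 reached that unadjusted level, all higher, where 4.08% and 4.16% of all genes were higher. Neither tool put any of the 9 past its adjusted threshold, which 37 genes passed by edgeR and 20 by limma. The DESeq2 count at the unadjusted level was 3 without Abi3 WT replicate 1 or Abi3 KO replicate 1, where Oasl2 joined. It was 1 without any one of Abi3 WT replicates 4 and 6 and Abi3 KO replicates 2 and 5. In these fits 3.50% to 4.27% of all genes were higher at that level. The median of the 9 was 0.027 without Abi3 KO replicate 2 and 0.53 without Abi3 WT replicate 4. By limma 8 of the 9 were above 0, with a median of 0.53. By DESeq2 without Abi3 KO replicate 5, also 8 were above 0, with a median of 0.32. The normalized counts of Abi3 WT and Abi3 KO animals overlapped for each of the 9 genes, while 1.04% of all genes did not overlap.

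The depth of the libraries bears on the firmness of these values. Between 3202310 and 5501958 reads per animal fell in genes, and 3 counts, taken as the least that can be told from none, stood for 0.545 to 0.937 CPM, the count scaled to the library total. Ifi27 had 66 to 134 reads per animal, Ifitm3 49 to 227 and Ifit3 24 to 49. Rtp4 had 4 to 31 and Oasl2 3 to 18. Isg15, Irf7, Usp18 and Bst2 had at most 10, 15, 12 and 6 reads in any animal, and each of these 4 genes was at 0 in at least 1 animal. DESeq2 gave an adjusted p only to genes whose normalized counts averaged 70.4 or more, and Ifi27 and Ifitm3 were the 2 of the 9 above it.

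Some properties of the libraries moved with genotype. Reads that fell outside genes numbered 65.9 ± 3.67 (SD, n = 6) per 100 reads in genes in Abi3 WT and 54.0 ± 4.99 (SD, n = 5) in Abi3 KO animals (exact permutation test, two-sided, p = 0.00866, adjusted over 3 library measures 0.0195). Abi3 KO libraries also had fewer genes with a count, 17785 ± 243 (SD, n = 5) against 18445 ± 345 (SD, n = 6) (exact permutation test, two-sided, p = 0.013, adjusted 0.0195). Abi3 itself had 10 to 38 reads in the Abi3 WT animals and 0 to 2 in the Abi3 KO animals. Thy1, named here after its value was seen because its promoter drives the transgenes, had 3755 ± 123 (SD, n = 6) normalized counts in Abi3 WT and 5642 ± 580 (SD, n = 5) in Abi3 KO, with no overlap between the ranges of 3630 to 3921 and 5079 to 6531. A difference in transgene dose or strain background between these groups cannot be told apart from the lack of Abi3. The part of these differences in the interferon values was not tested. Reads outside genes were entered as a covariate in 1 alternative fit. They ran from 59.3 to 68.8 per 100 in Abi3 WT and from 49.8 to 62.5 in Abi3 KO animals. Covariate and genotype are therefore hard to separate, and the values of that fit, here and below, only describe how far estimates moved. With that covariate the log2 fold change was 0.37 for Ifi27 and -0.67 for Rtp4 (adjusted p = 1 by DESeq2 for both). Only 3 of all genes passed the threshold in that fit.

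Promoters of some of these genes hold a match to the element through which interferon acts. The interferon-stimulated response element was searched for as GAAANNGAAA on both strands, from 250 bases before to 50 bases after each start site in RefSeq's promoter table, which held 6 of the 9 genes, Isg15, Oasl2, Ifitm3, Irf7, Bst2 and Ifit3. RefSeq gives the table on GRCm38.p6, and each sequence matched GRCm39 at 1 place only, from which the coordinates below come. The element was in 4 of the 6 promoters, in all 4 more than once. Among 27025 genes in the table it was in 3.99%, and it was in 38 of 79 other interferon-stimulated genes. The genes were chosen as interferon-stimulated genes, so the element is not independent of their choice and its presence is a description only. The stretches that hold it in Isg15, Bst2, Ifit3 and Ifitm3 are shown on the strand of the gene with each match in capitals.
Isg15, chr4:156285312-156285373, minus strand: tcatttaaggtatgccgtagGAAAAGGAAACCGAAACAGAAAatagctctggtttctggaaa
Bst2, chr8:71990211-71990266, minus strand: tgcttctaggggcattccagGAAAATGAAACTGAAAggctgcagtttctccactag
Ifit3, chr19:34560753-34560836, plus strand: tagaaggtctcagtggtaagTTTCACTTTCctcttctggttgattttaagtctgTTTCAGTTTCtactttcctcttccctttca
Ifitm3, chr7:140590629-140590655, minus strand: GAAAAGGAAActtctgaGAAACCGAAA

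In Isg15, 3 matches overlapped and began 78, 72 and 66 bases before the start site. In Bst2, 2 overlapping matches began 130 and 124 bases before it. In Ifit3 the 2 matches lay apart, beginning 156 and 122 bases before the start, and were on the opposite strand, so the capitals above show the complement of the element. In Ifitm3 the 2 matches began at bases 3 and 20 after the RefSeq start. These letters were not found in the windows of Irf7 and Oasl2. A match is a description of the sequence and was not linked to binding. The 4 genes with the element had log2 fold changes of 0.77 (Isg15), -0.0066 (Bst2), 0.12 (Ifit3) and -0.08 (Ifitm3), and the 2 without it had -0.02 (Irf7) and 0.97 (Oasl2).

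**Figure D1:**
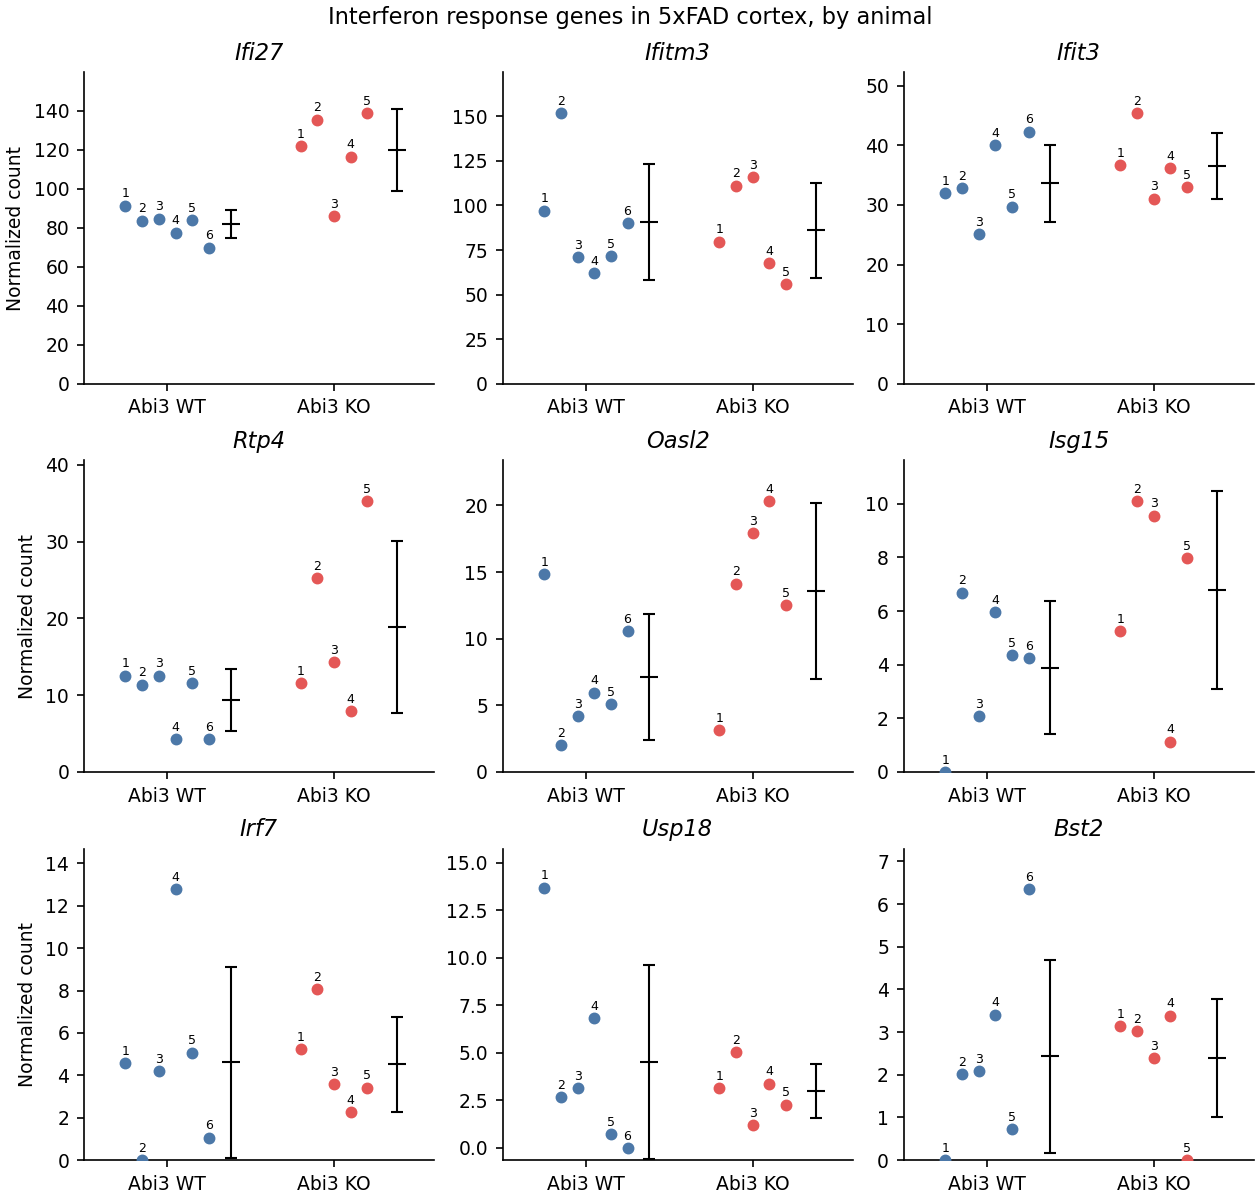
Normalized counts of the 9 interferon response genes (vertical axes, starting at or just below 0) in each Abi3 WT (blue, n = 6) and Abi3 KO (red, n = 5) animal, with replicate numbers beside the points. Black bars give the mean and SD of each genotype; 4 of 5 Abi3 KO animals lie above all Abi3 WT animals for Ifi27, and the genotypes overlap in every panel.

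Irf7 is the transcription factor that amplifies interferon production and is itself induced by interferon. Its gene lies on chromosome 7 of GRCm39, from 140842619 to 140846398. Normalized counts in Abi3 WT animals were 0 at the lowest, 4.37 at the median and 12.8 at the highest. In Abi3 KO replicates 1 to 5 they were 5.24, 8.08, 3.58, 2.26 and 3.41. The Abi3 KO values lay inside the range of the Abi3 WT values, and the highest animal was Abi3 WT replicate 4. Irf7 had a log2 fold change of -0.02 with a SE of 0.83 and a 95% interval from -1.66 to 1.61 (adjusted p = 0.9998 by DESeq2 with independent filtering off), an interval that reaches 3.06-fold higher in Abi3 KO. Its direction turned under several of the alternatives.

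Isg15 encodes a ubiquitin-like protein that is attached to other proteins during the interferon response, and Usp18 encodes the protease that removes it and that also restrains signalling at the interferon receptor. Isg15 is on chromosome 4, from 156283883 to 156285303. Its normalized counts in Abi3 WT were 0 at the lowest, 4.29 at the median and 6.69 at the highest. In the Abi3 KO replicates they were 5.24, 10.1, 9.55, 1.13 and 7.97 in order. Abi3 KO replicates 2, 3 and 5 exceeded every Abi3 WT animal, while replicate 4 was below the Abi3 WT median. The log2 fold change of Isg15 was 0.77 with a SE of 0.73 and a 95% interval from -0.67 to 2.20 (adjusted p = 0.875 by DESeq2 with independent filtering off). With reads outside genes as a covariate it was -0.79.

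Usp18 is on chromosome 6, from 121222848 to 121247877. In Abi3 WT its normalized counts were 0 at the lowest, 2.91 at the median and 13.7 at the highest. The Abi3 KO replicates had 3.15, 5.05, 1.19, 3.39 and 2.28. All Abi3 KO values lay within the Abi3 WT range, whose top was set by Abi3 WT replicate 1. Usp18 had a fitted log2 fold change of -0.55 with a SE of 0.91 and a 95% interval from -2.34 to 1.25 (adjusted p = 0.949 by DESeq2 with independent filtering off), and it was 0.18 without Abi3 WT replicate 1. The intervals of Usp18 and Isg15 both include 0 and overlap each other.

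Ifit3 and Oasl2 belong to families that act on viral RNA. Ifit3 is part of the complex of IFIT proteins that holds back translation of viral RNA, and Oasl2 is a 2′-5′ oligoadenylate synthetase-like protein. Ifit3 lies on chromosome 19, from 34560899 to 34566443. Its normalized counts were 25.1, 32.4 and 42.3 at the lowest, median and highest of the Abi3 WT animals. In the Abi3 KO replicates they were 36.7, 45.5, 31.0, 36.1 and 33.0. Abi3 KO replicate 2 was the highest of the 11 animals and the others lay inside the Abi3 WT range. Ifit3 differed by a log2 fold change of 0.12 with a SE of 0.26 and a 95% interval from -0.39 to 0.63 (adjusted p = 0.967 by DESeq2 with independent filtering off). This interval leaves out any increase above 1.54-fold.

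Ifit3 has a near-identical neighbour, Ifit3b, and reads that aligned to more than 1 place were not counted for either gene. The last 500 bases of the Ifit3 transcript aligned to Ifit3b with 93.7% identity over 493 bases, so the split between the pair is uncertain. Ifit3b had 4.03 ± 2.16 (SD, n = 6) normalized counts in Abi3 WT and 8.81 ± 6.38 (SD, n = 5) in Abi3 KO, with a log2 fold change of 1.14 (adjusted p = 0.716 by DESeq2 with independent filtering off). The sum of Ifit3 and Ifit3b was 37.7 ± 6.94 (SD, n = 6) in Abi3 WT and 45.3 ± 7.65 (SD, n = 5) in Abi3 KO, with ranges of 30.3 to 48.7 and 37.0 to 53.5 that overlapped.

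Oasl2 is on chromosome 5, from 115034997 to 115050295. Abi3 WT animals had 2.01 normalized counts at the lowest, 5.52 at the median and 14.8 at the highest. The Abi3 KO replicates had 3.15, 14.1, 17.9, 20.3 and 12.5. Abi3 KO replicates 3 and 4 were above every Abi3 WT animal, and replicate 1 was below the Abi3 WT median. Oasl2 had a log2 fold change of 0.97 with a SE of 0.57 and a 95% interval from -0.15 to 2.10 (adjusted p = 0.713 by DESeq2 with independent filtering off). It was 1.32 without Abi3 WT replicate 1, the highest Abi3 WT animal, and 1.24 without Abi3 KO replicate 1, the lowest Abi3 KO animal. With reads outside genes as a covariate it was 2.19, also without passing the adjusted threshold. Oasl1, its closest relative in the family, had 12 reads in all and was not tested.

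Ifitm3 and Bst2 encode membrane proteins that block viruses at entry and at release. Ifitm3 is on chromosome 7, from 140589499 to 140591282. In Abi3 WT its normalized counts were 62.2 at the lowest, 80.8 at the median and 152 at the highest. The Abi3 KO replicates had 79.7, 111, 116, 67.8 and 55.8. Abi3 WT replicate 2 was the highest animal and Abi3 KO replicate 5 the lowest, with the rest of each genotype intermixed. The log2 fold change of Ifitm3 was -0.08 with a SE of 0.25 and a 95% interval from -0.56 to 0.40 (adjusted p = 0.937 by DESeq2), which leaves out an increase above 1.32-fold. Without Abi3 WT replicate 2 it was 0.14.

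The Ifitm genes form a cluster of similar sequences. The end of the Ifitm3 transcript aligned to Ifitm2 with 85.0% identity over 307 bases and to the pseudogenes Gm6885 and Gm49925 with 91.1% over 303 and 88.2% over 357 bases, and both pseudogenes had 0 reads in all animals. Ifitm2 had a log2 fold change of -0.33, Ifitm1 -0.82, Ifitm7 -0.10 and Ifitm6 0.13, none with an unadjusted DESeq2 p under 0.05. Isg15 likewise had a copy, Gm9706, with 94.7% identity over 338 bases and 0 reads in all animals. The other copies found were shorter matches, and no such copy was found for Ifi27, Bst2, Irf7, Oasl2 or Usp18.

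Bst2, also called tetherin, is on chromosome 8, from 71986895 to 71990114. Its normalized counts were 0, 2.05 and 6.35 at the lowest, median and highest of the Abi3 WT animals. In the Abi3 KO replicates they were 3.15, 3.03, 2.39, 3.39 and 0. Bst2 was at 0 in 1 animal of each genotype, where a count of 0 allows up to 3 counts. The log2 fold change of Bst2 was -0.0066 with a SE of 1.03 and a 95% interval from -2.02 to 2.01 (adjusted p = 0.9998 by DESeq2 with independent filtering off). That interval reaches 4.03-fold higher in Abi3 KO.

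Ifi27 encodes a small mitochondrial membrane protein and is counted here among the genes induced by interferon. Its gene is on chromosome 12, from 103392254 to 103407799. The Abi3 WT animals had 69.8 normalized counts at the lowest, 83.8 at the median and 91.3 at the highest. The Abi3 KO replicates had 122, 135, 85.9, 116 and 139. Replicates 1, 2, 4 and 5 of Abi3 KO were above every Abi3 WT animal, and replicate 3 was inside the Abi3 WT range. The means of Ifi27 were 81.8 ± 7.33 (SD, n = 6) in Abi3 WT and 119.6 ± 21.0 (SD, n = 5) in Abi3 KO.

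For Ifi27 the log2 fold change was 0.55 with a SE of 0.17 and a 95% interval from 0.23 to 0.87, a 1.46-fold difference with an interval from 1.17 to 1.83. The adjusted p was 0.0585 by DESeq2, 0.138 with independent filtering off, 0.249 by edgeR and 0.31 by limma. When each of the 11 animals was left out in turn, Ifi27 passed only without Abi3 KO replicate 3, at a log2 fold change of 0.65 (adjusted p = 0.0169 by DESeq2), and where another animal was left out its adjusted p, given in 5 of the fits, ran from 0.0834 to 0.22. The annotated span of Ifi27 overlaps that of Ifi27l2a on the opposite strand, and counting used the strand. Ifi27l2a had 5.54 ± 7.71 (SD, n = 6) normalized counts in Abi3 WT and 15.9 ± 8.59 (SD, n = 5) in Abi3 KO, with a log2 fold change of 1.49 (adjusted p = 0.586 by DESeq2 with independent filtering off). For Ifi27l2a it was -0.37 with reads outside genes as a covariate and 2.75 without Abi3 WT replicate 2.

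Rtp4 encodes a chaperone that helps G protein-coupled receptors reach the cell surface and that is induced by interferon. Its gene is on chromosome 16, from 23337811 to 23432972. In Abi3 WT its normalized counts were 4.23, 11.5 and 12.6 at the lowest, median and highest. The Abi3 KO replicates had 11.5, 25.3, 14.3, 7.91 and 35.3. Replicates 2, 3 and 5 of Abi3 KO were above every Abi3 WT animal, replicate 3 by little, and replicates 1 and 4 were inside the Abi3 WT range. Rtp4 had a fitted log2 fold change of 1.00 with a SE of 0.49 and a 95% interval from 0.04 to 1.96 (adjusted p = 0.581 by DESeq2 with independent filtering off). Without Abi3 KO replicate 5 it was 0.65. In the GENCODE annotation, 1129 of the 4242 exonic bases of Rtp4 are shared with Gm45338 on the same strand. Gm45338 had 36 reads in all. By the study's counting mode, a read wholly in bases shared by both genes counts for neither. The study counted with another annotation release, in which the overlap may differ.

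**Figure D2:**
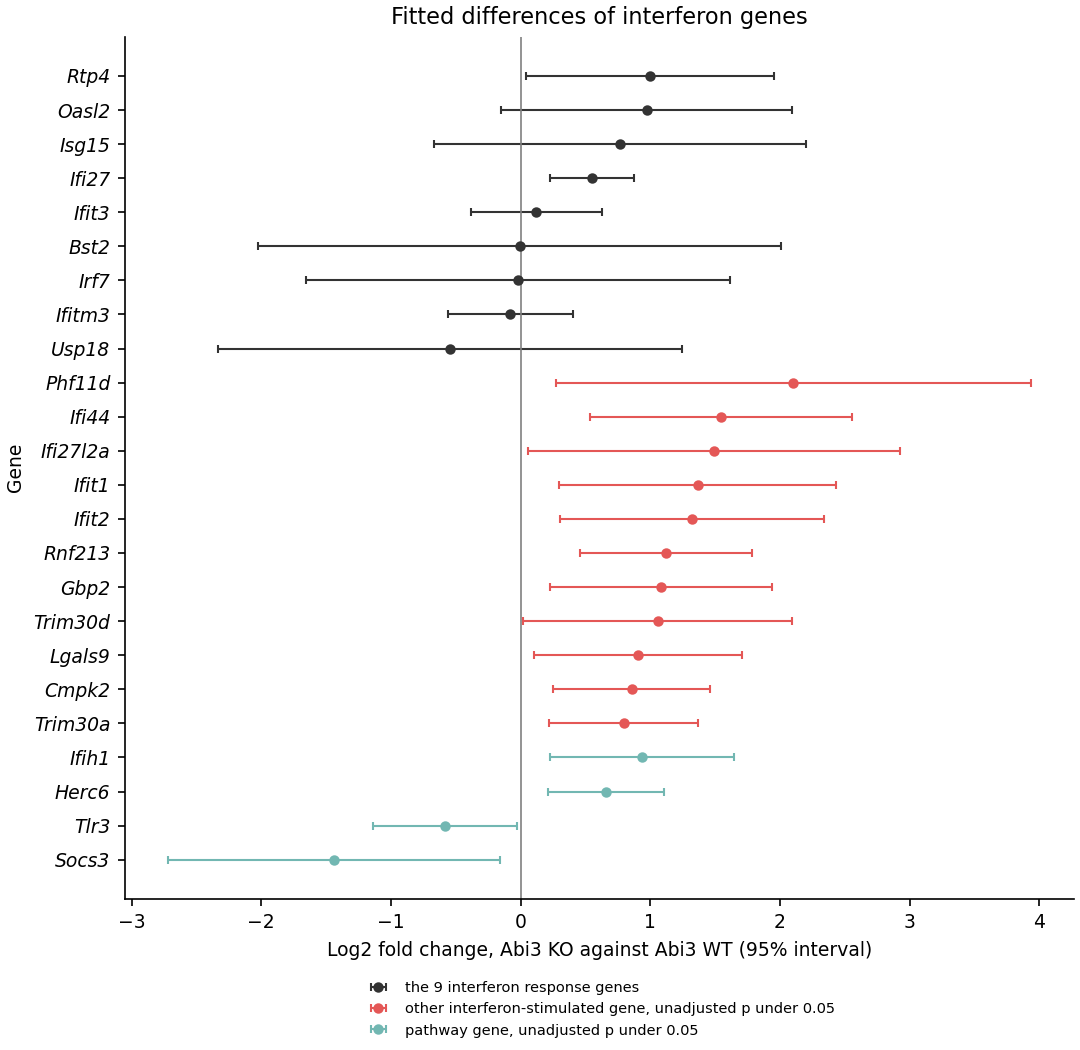
Log2 fold change of Abi3 KO against Abi3 WT (points) with 95% intervals (bars) for the 9 interferon response genes (black) and, for the genes of the related lists that had an unadjusted p under 0.05, other interferon-stimulated genes (red) and pathway genes (teal). The intervals of Rtp4 and Ifi27 are the 2 black ones that lie wholly above 0, and that of Bst2 is among the widest; red and teal genes were selected for this plot by their p.

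How far these genes varied together among animals was examined next. Correlations were taken over the 11 animals between deviations of log2(normalized count + 1) from the genotype mean, for the 5 genes that averaged at least 10 normalized counts. Of their 10 pairs, 4 had a positive and 6 a negative Pearson r, with a median of -0.05. Ifi27 and Rtp4 had the highest, r = 0.61 (permutation p = 0.0403, adjusted over 10 pairs 0.403) and rho = 0.84 (permutation p = 0.0022, adjusted 0.022), and r = 0.83 after the 2 animals farthest from the median of Ifi27 were left out. Ifit3 and Rtp4 had the lowest, r = -0.45 (permutation p = 0.165, adjusted over 10 pairs 0.823). The pairs share libraries, and counts as low as those of Oasl2 and Rtp4 carry counting error that is not shared.

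Single animals differed in which genes were high. The summed normalized counts of the 9 genes were 209 to 293 in Abi3 WT and 259 to 358 in Abi3 KO, the highest being Abi3 KO replicate 2, a sum made up mostly of Ifi27 and Ifitm3. Replicate 2 of Abi3 KO was the highest of all animals for 2 of the 9 genes, Ifit3 and Isg15. Replicate 5 of Abi3 KO was the highest for 2, Ifi27 and Rtp4. Of the 44 other interferon-stimulated genes with a mean of at least 10, Abi3 KO replicate 2 was the highest for 12, and no other animal for more than 6.

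The 5 genes outside the list whose values were most like the mean z-score of the 9 genes over the 11 animals, of 12897 genes searched, were Tmem50a (r = 0.91), Cox7a2l (r = 0.89), Azin1 (r = 0.88), Cckbr (r = 0.87) and Tgfbr3 (r = 0.86). None of these 5 was in an interferon list used here. Their r includes the difference between genotypes, and they were the highest of many, so r is a description without a test.

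Upstream of these genes, no interferon was detected. All 21 interferon genes on the pathway list, among them Ifnb1, Ifne, Ifnk, Ifng and the Ifna genes, had 0 reads in every animal, which allows up to 3 counts in each. Tlr9 and Trex1 also had 0 reads. Of the 64 listed pathway genes (ligands, receptors, kinases, transcription factors, nucleic acid sensors, restraints and ISG15 conjugation enzymes), 39 were tested and 0 passed the threshold, by DESeq2 with filtering on or off, by edgeR and by limma.

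The receptor and the kinases and factors of its signalling chain were measured in all animals. Ifnar1 had 60.5 ± 9.01 (SD, n = 6) normalized counts in Abi3 WT and 61.3 ± 22.8 (SD, n = 5) in Abi3 KO, and Ifnar2 had 122 ± 31.7 (SD, n = 6) and 113 ± 13.8 (SD, n = 5). Jak1 had a log2 fold change of 0.15, Tyk2 -0.69, Stat2 -0.05 and Irf9 0.34, none with an unadjusted DESeq2 p under 0.05. The median log2 fold change over the 39 pathway genes was 0.0016, with 20 above and 19 below 0.

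At an unadjusted p under 0.05, 4 of the 39 pathway genes were found, 2 higher and 2 lower in Abi3 KO, beside 4.14% and 4.44% of all genes, so the numbers were near those shares and the values of the 4 are a description. Ifih1, which encodes the double-stranded RNA sensor MDA5, had 15.3 ± 5.83 (SD, n = 6) normalized counts in Abi3 WT and 29.5 ± 8.54 (SD, n = 5) in Abi3 KO, a log2 fold change of 0.94 with a SE of 0.36. Herc6, the mouse ligase that attaches ISG15, had 62.0 ± 21.6 (SD, n = 6) and 98.0 ± 8.80 (SD, n = 5), a log2 fold change of 0.66 with a SE of 0.23 (adjusted p = 0.132 by DESeq2). Tlr3, an endosomal sensor of double-stranded RNA, had 44.0 ± 13.4 (SD, n = 6) and 29.3 ± 5.47 (SD, n = 5), a log2 fold change of -0.58. Socs3, a feedback inhibitor of cytokine signalling, had 14.3 ± 7.36 (SD, n = 6) and 5.24 ± 4.73 (SD, n = 5), a log2 fold change of -1.44. With reads outside genes as a covariate, the value for Tlr3 was 0.0067, that for Ifih1 0.21 and that for Socs3 -2.96.

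**Figure D3:**
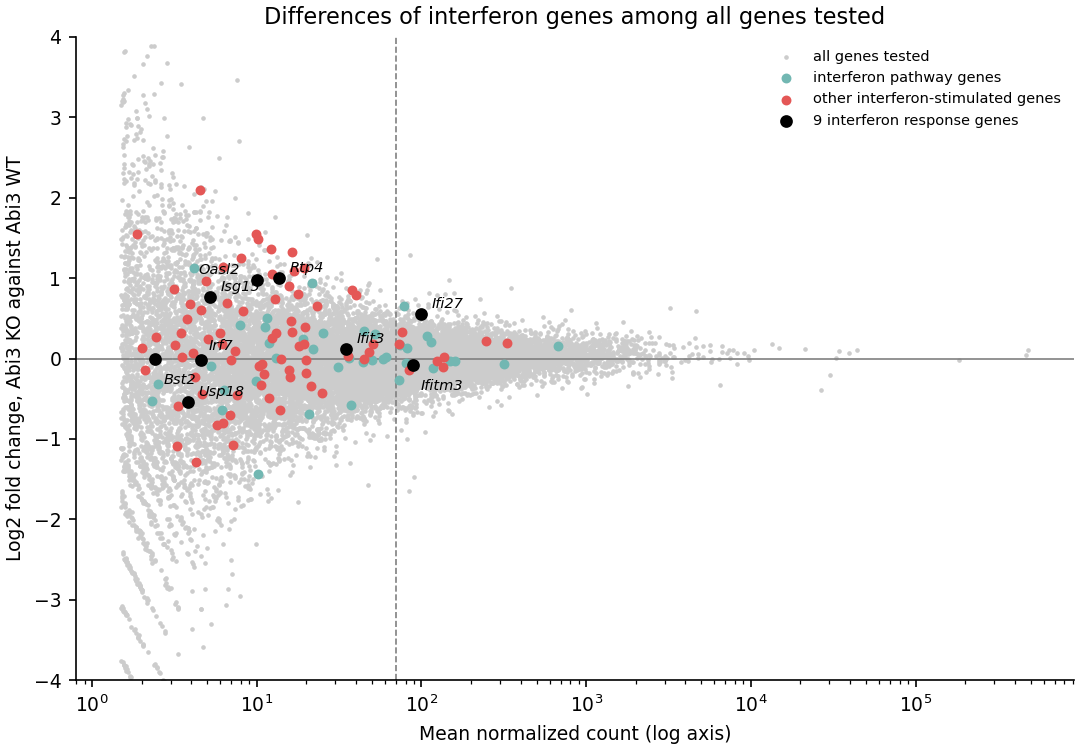
Log2 fold change of Abi3 KO against Abi3 WT against mean normalized count (log axis) for all genes tested (grey), interferon pathway genes (teal), other interferon-stimulated genes (red) and the 9 interferon response genes (black, named); 29 genes lie outside the vertical range of ±4. Ifi27 and Ifitm3 are the black points to the right of the dashed line at 70.4, below which DESeq2 gave no adjusted p, and the spread of grey points widens toward the low counts at which Bst2, Usp18 and Irf7 lie.

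A wider list of 101 other interferon-stimulated genes was set beside the 9. Of these, 78 were tested, 8 were given an adjusted p and 0 passed the threshold by DESeq2 with filtering on or off, by edgeR or by limma. Their median log2 fold change was 0.18, with 49 above and 29 below 0, beside a median of -0.0033 and 49.5% above 0 over all genes tested. At an unadjusted DESeq2 p under 0.05, 11 were higher and 0 lower in Abi3 KO, beside 4.14% and 4.44% of all genes. Without Abi3 KO replicate 2 the numbers were 6 higher and 2 lower with a median of 0.07, where 3.50% of all genes were higher. Without Abi3 KO replicate 5 they were 7 higher and 2 lower, where 3.59% of all genes were higher. With reads outside genes as a covariate, 3 of the 78 reached that level, all higher, where 1.68% of all genes were higher at that level in the same fit.

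These 11 genes came from several families. From the IFIT family of Ifit3, Ifit1 had 7.09 ± 4.57 (SD, n = 6) normalized counts in Abi3 WT and 18.2 ± 8.65 (SD, n = 5) in Abi3 KO, a log2 fold change of 1.36 with a SE of 0.55. Ifit2 had 9.85 ± 5.21 (SD, n = 6) and 24.3 ± 19.3 (SD, n = 5), a log2 fold change of 1.32 with a SE of 0.52. With reads outside genes as a covariate, the log2 fold change of Ifit2 was 0.015. Abi3 KO replicate 2, the highest animal for Ifit3, was also the highest for Ifit2 with 56.6. With 1 animal left out, the log2 fold change of Ifit2 ran from 0.74 to 1.56. Cmpk2, a mitochondrial nucleotide kinase, had 27.8 ± 6.96 (SD, n = 6) and 50.1 ± 21.8 (SD, n = 5), a log2 fold change of 0.86.

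Among the tripartite motif genes, Trim30a had a log2 fold change of 0.79 and Trim30d of 1.06. Gbp2, a guanylate-binding GTPase, had 1.08, and Ifi44 had 1.55, with means of 5.41 ± 2.56 (SD, n = 6) in Abi3 WT and 15.4 ± 5.68 (SD, n = 5) in Abi3 KO. Lgals9, which encodes galectin-9, had 0.91, and Phf11d had 2.10 at a mean of 4.52 normalized counts. With reads outside genes as a covariate, Gbp2 had 0.075, Lgals9 0.10 and Trim30d 0.20. Rnf213, a large ubiquitin ligase, was the 1 gene of the 78 whose genotypes did not overlap, where 1.04% of all genes did not, with 10.1 to 16.9 normalized counts in Abi3 WT and 20.3 to 32.3 in Abi3 KO. Its log2 fold change was 1.12 with a SE of 0.34 (adjusted p = 0.139 by DESeq2 with independent filtering off). Rnf213, Lgals9 and Socs3 lie on chromosome 11 with the targeted Abi3 locus, Rnf213 from 119283926 to 119378244 and Abi3 from 95720900 to 95733302, so DNA linked to the null allele and the lack of Abi3 cannot be told apart for them.

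**Figure D4:**
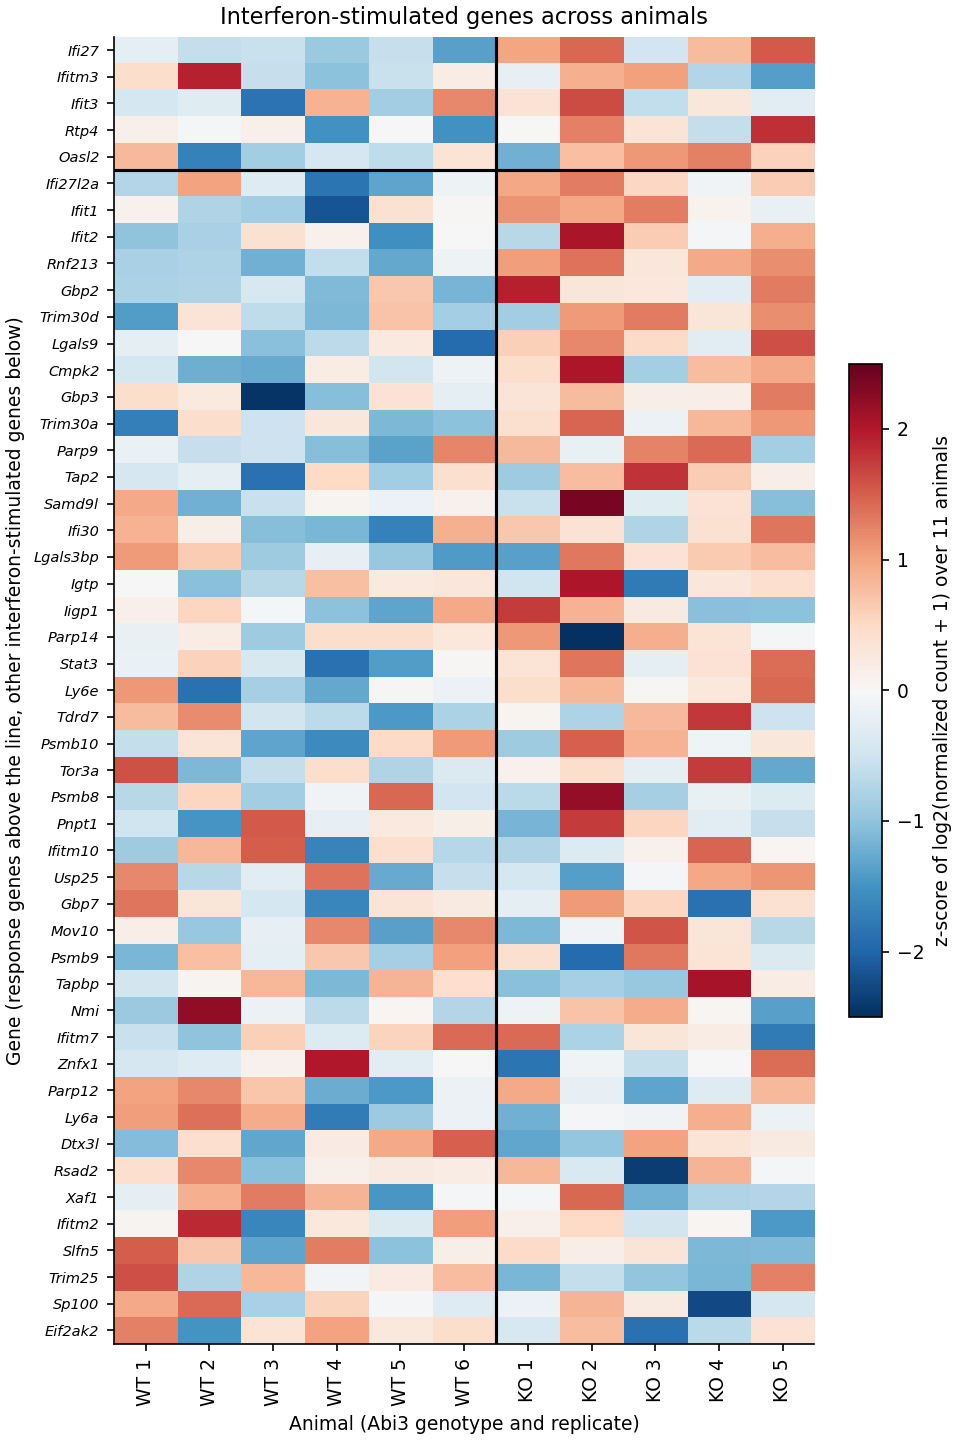
Values of the 5 response genes (above the black line) and 44 other interferon-stimulated genes (below it, sorted by log2 fold change) that averaged at least 10 normalized counts, in each animal, as z-scores of log2(normalized count + 1) over the 11 animals; red is above and blue below the mean of the gene. Rnf213 is red in all 5 Abi3 KO columns and blue in all 6 Abi3 WT columns, and the column of Abi3 KO replicate 2 holds the highest value of 12 of the 44 genes.

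Marker genes of the cell types that could carry these transcripts were summed per animal. The microglial sum was 2675 ± 350 (SD, n = 6) normalized counts in Abi3 WT, from 2355 to 3219, and 3055 ± 381 (SD, n = 5) in Abi3 KO, from 2625 to 3663, with 11 of 12 tested markers above 0 on the log2 scale (exact permutation test, two-sided, p = 0.134). The sum of border macrophage markers was 41.7 ± 13.2 (SD, n = 6), from 24.6 to 54.2, and 54.5 ± 10.7 (SD, n = 5), from 43.0 to 67.1 (exact permutation test, two-sided, p = 0.13). Endothelial markers summed to 877 ± 120 (SD, n = 6) and 899 ± 54.9 (SD, n = 5) (exact permutation test, two-sided, p = 0.714). T cell markers summed to 21.7 to 53.6 in Abi3 WT and 9.44 to 41.8 in Abi3 KO, with the defining Cd3d, Cd3e, Cd3g, Cd8a and Cd8b1 under 10 reads in all, and the neutrophil markers S100a8 and Ly6g were at 0. None of the 12 marker sums passed after adjustment, the lowest adjusted p being 0.509 by the exact permutation test. Ifi27 and the microglial sum were each higher on average in Abi3 KO, by 1.46 and 1.14 times, and the part of cell number in the interferon values was not tested.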

How the data were processed

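Cortical RNA of 11 animals was sequenced with single-end QuantSeq 3′ libraries primed from poly(A). Per the labels and the study's methods, the authors trimmed reads with bbduk, aligned them with STAR (version 2.7.3a) to GRCm39 and counted them per Ensembl gene with htseq-count from HTSeq (version 0.9.1), using the strand and leaving out reads aligned to more than 1 place. The deposited files hold raw counts for each gene. Lines for reads given to no gene held 79.4% to 82.3% of each file's total and were left out of library sizes and tests. No collapsing of PCR copies is stated. The floor of 3 counts covers counting error only, while the intervals of log2 fold changes come from DESeq2's standard errors and include the spread between animals.

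DESeq2 (version 1.42.0, R version 4.3.3) was fitted with a term for genotype alone, which follows the study. The fit took genes with at least 10 counts in all, and the results those that averaged 1.5 normalized counts or more. Genes passed at an adjusted p of 0.05 or less. Genes to which independent filtering gave no adjusted p were counted as not past it. Normalized counts are counts divided by DESeq2's size factors. The 9 genes, the related lists and the tests were chosen with earlier results of these data known. Genes named are Abi3, the 9 genes, their near-identical copies, list genes past the threshold or with an unadjusted p under 0.05, and the 5 genes most like the 9. Thy1, the pathway genes given for the receptor and its signalling chain and the marker genes fall outside that rule, and some genes of the lists are not reported here. The labels do not say that animals came from separate litters. p-values measure the spread between these animals.

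Alternatives were the quasi-likelihood test of edgeR (version 4.0.16), voom with weights per sample in limma (version 3.58.1), TMM factors, size factors from library totals, no filter or at least 10 counts in at least 5 animals, independent filtering off or aimed at 0.1, the replicate number as a block, reads outside genes as a covariate, and leaving out each animal. Fits were tested on simulated counts with 200 of 17626 genes changed by a log2 of 1. DESeq2 recovered 74.5%, edgeR 73.5% and limma 65.5% of them, and 9.15%, 9.82% and 5.76% of their calls were false. The changed genes all had higher mean counts than Rtp4, Oasl2, Isg15, Irf7, Usp18 and Bst2, so the simulation does not cover these. Exact permutation tests used scipy (version 1.17.1), and correlations 100000 resamples. Over 5 pairs, animals with the same replicate number had correlations of their deviations from -0.0048 to 0.066, and the animals differ, so the numbers were not taken as pairs. None of the 25 pairs of files within a genotype agreed within sampling noise. Gene positions came from GENCODE vM39 on GRCm39, promoters from RefSeq, and copies from BLAST (version 2.17.0) of the last 500 bases of each transcript.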

Additional observations from a re-analysis of the deposited data

Results flagged for a closer look

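Of the 44 sets of animals of one genotype examined for a single animal far from the rest, 1 stood apart, where about 2.2 would by chance. It was the summed level of choroid plexus markers in Abi3 WT replicate 4, with 3588 normalized counts where the nearest Abi3 WT animal had 152. In that animal the interferon response gene Irf7 was the highest of all animals and Rtp4 among the lowest. None of the 9 interferon response genes had an animal that stood apart by the same measure.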

How the results depend on the processing

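Over all genes the count past the threshold was 95 (60 higher and 35 lower in Abi3 KO), and it was 37 by edgeR, 20 by limma, 53 with size factors from library totals (14 higher and 39 lower), 57 with independent filtering off, 3 with reads outside genes as a covariate and 33 with the replicate block, and 46 to 120 when 1 animal was left out (61 without Abi3 WT replicate 1 or Abi3 KO replicate 1, 48 without Abi3 WT replicate 6, 46 without Abi3 KO replicate 2 and 47 without Abi3 KO replicate 5). The number of the 9 interferon response genes past the threshold was 0 under each of these, the replicate block included, except 1 without Abi3 KO replicate 3, so that leaving out 1 animal gave 0 to 1. For the pathway genes and for the other interferon-stimulated genes it was 0 under every alternative run. With the replicate block, 7 of the other interferon-stimulated genes had an unadjusted p under 0.05, all higher in Abi3 KO, where 11 had without it. The share of all genes higher at that level also fell with the block, below the 4.14% without it. The drop from 11 to 7 was therefore not particular to these genes. The log2 fold change of Ifi27 was above 0 under all alternatives, as were those of Ifit3 and Oasl2. Low-count genes turned direction. Irf7 was 0.60 by limma, 0.073 with the replicate block and -0.34 to 0.63 with 1 animal left out. Usp18 was 0.21 by limma, 0.19 with the covariate and -0.82 to 0.18 with 1 animal left out. Bst2 was 0.12 by limma, 0.50 with the replicate block, 0.95 with the covariate and -0.25 to 0.52 with 1 animal left out. Ifitm3 was -0.21 to 0.14 with 1 animal left out. With the covariate Isg15 was -0.79, Rtp4 -0.67, Ifi27l2a -0.37 and Tlr3 0.0067. On CPM the correlation of Ifit3 and Ifi27 was 0.041, and the ratio of summed endothelial markers 0.998. The causes of these shifts were not tested. Depth limits Irf7, Isg15, Usp18 and Bst2 most, and the labels do not say that a replicate number marks a shared litter or day. With the replicate block 7 of the 9 genes were above 0, with a median of 0.50.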
